A study of Sus scrofa with 9 samples.

Results

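Insulin signalling and glucose transport in pig skeletal muscle were followed through 9 genes: the glucose transporters SLC2A4 and SLC2A1, the receptor INSR, its substrate IRS1, the lipid kinase subunit PIK3R1, the kinases AKT1 and AKT2, the transcription factor FOXO1 and the glycogen synthase kinase GSK3B. Their probes were found by matching the accession that the array files give for a probe, without its version, to RefSeq's table of pig genes (assembly Sscrofa11.1). This named 8 of the 43603 probes on the array, for 4 of the 9 genes (of 3196 genes named in all): 3 probes of SLC2A4, 2 of IRS1, 1 of AKT1 and 2 of GSK3B. SLC2A1, INSR, PIK3R1, AKT2 and FOXO1 stand in the gene table but had no probe named in this way, so they are not analysed here. All 8 probes passed the filter on dim signals and entered the test.

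The muscle came from the longissimus dorsi, the long muscle of the back, of Bama minipigs, a small Chinese breed used as a model of obesity. The 6 animals of the high-fat high-sucrose group (HFHSD) ate a mix of 53% basal feed, 37% sucrose and 10% lard for 23 months, starting at an age of 6 months, and the 3 control animals (CD) ate standard pig chow over the same period. Both groups were gonadally intact, included males and females without a sex given for each animal, were fed a restricted ration (3% of body weight) in individual pens, and were fasted overnight before dissection. Each animal gave 1 single-colour Agilent array; the descriptions give 3 CD animals in one place and 6 in another, and 3 CD arrays were analysed.

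Insulin binds its receptor at the cell surface, and the receptor phosphorylates IRS proteins, which recruit the lipid kinase PI3K and through it activate AKT. In muscle, AKT signalling moves vesicles that carry the transporter GLUT4, the product of SLC2A4, to the surface, inactivates GSK3 so that glycogen synthase becomes active, and keeps FOXO factors out of the nucleus. Much of this control acts on proteins through phosphorylation and transport, whereas the arrays measured transcript levels.

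A level below is the log2 of a probe's processed signal minus the 75th percentile of its array, so a level of 0 is that percentile. A difference is HFHSD minus CD on the same log2 scale, with its standard error (SE) from limma, and adjusted p-values (Benjamini-Hochberg) take in all 27922 tested probes, with 0.05 as the threshold. Levels of different probes are not set against each other. The tissue label was checked with 16 muscle fibre genes, of which 14 were measured: their mean level was 8.75 to 9.48 on the HFHSD arrays and 9.11 to 9.46 on the CD arrays. The share of probes well above background was 51.1% to 68.8% on 8 arrays and 36.7% on CD 1, and 3 slides were used, of which 2 held both diets.

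None of the 8 probes passed the threshold. Over the whole array 344 of 27922 probes passed, 1.23%, of which 0.695% were higher and 0.537% lower in HFHSD, and a share of 1.23% gives less than 1 probe in 8. At an unadjusted limma p under 0.05, 1 of the 8 probes was counted, an IRS1 probe, beside 16.5% of all tested probes. The 2 diet groups overlapped on each of the 8 probes, whereas they did not overlap on 10.9% of all tested probes. The count of 0 held under all 22 alternatives tried, and the lowest adjusted p of any of these probes under any of them was 0.106. Among these, the authors' deposited table repeats the values used and so could not change the count. The outcome at a looser threshold of 0.1 was also settled by the fit reported, where the lowest adjusted limma p was 0.256. The fitted differences were below 0 for the 3 SLC2A4 probes, the AKT1 probe and both GSK3B probes, and above 0 for both IRS1 probes; under normexp background correction with percentile scaling the dimmer IRS1 probe and the brighter GSK3B probe turned sign.

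**Figure D1:**
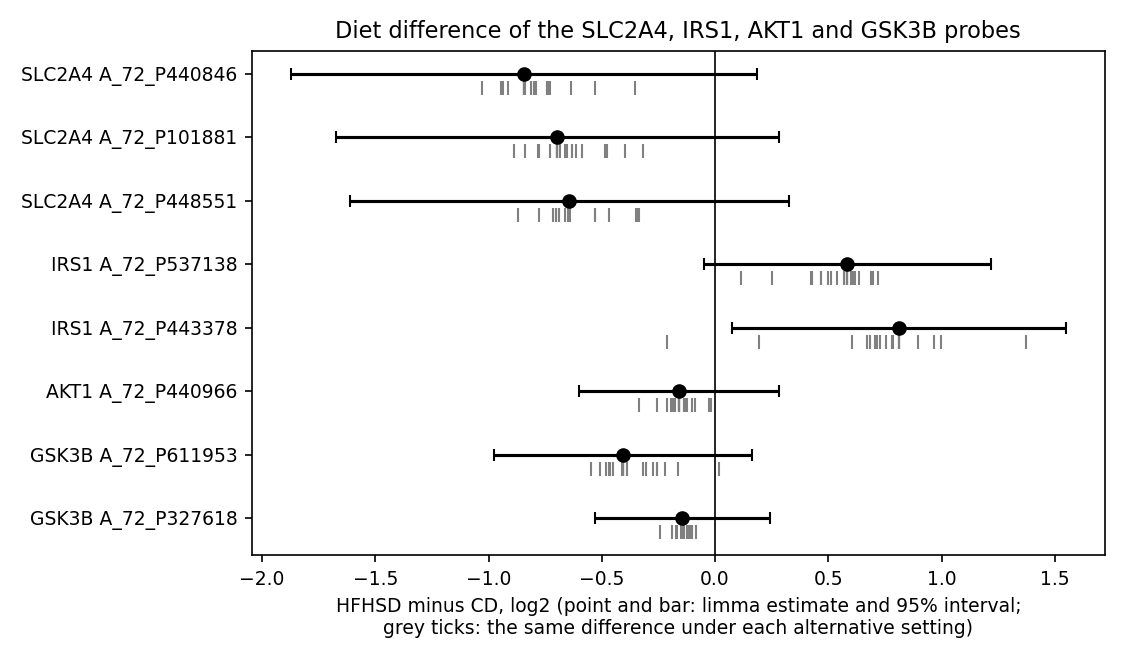
HFHSD minus CD difference in log2 (horizontal axis) for each probe of SLC2A4, IRS1, AKT1 and GSK3B (vertical axis), with points for the limma estimate and bars for its 95% confidence interval. The interval crosses 0 for every probe except the dimmer IRS1 probe, whose interval runs from 0.073 to 1.55, and no probe passed the adjusted threshold.

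SLC2A4 encodes GLUT4, the glucose transporter that insulin and contraction bring to the surface of muscle fibres and fat cells. On its brightest probe, A_72_P440846, the level was 6.72, 6.44 and 6.71 on CD 1, CD 2 and CD 3, and 4.21 at the lowest, 5.93 at the median and 6.70 at the highest on the 6 HFHSD arrays. Of the HFHSD arrays, 5 lay below the lowest CD array, and HFHSD 4, at 6.70, lay among the CD arrays, so the groups overlapped. The CD mean was 6.62 ± 0.16 (SD, n = 3) and the HFHSD mean 5.78 ± 0.86 (SD, n = 6). The difference was -0.84 (SE 0.46, 95% interval -1.87 to 0.18, adjusted p = 0.412 by limma), a 1.80-fold lower mean signal that did not pass the threshold. In whole muscle, fewer cells of a type and less RNA per cell cannot be told apart.

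The other 2 SLC2A4 probes had the same order of arrays at the extremes. On A_72_P101881 the CD levels were 1.65, 1.06 and 1.60, and the HFHSD levels ran from -0.74 through a median of 1.02 to 1.45. On A_72_P448551 the CD levels were 0.16, -0.52 and 0.16, and the HFHSD levels ran from -2.22 through a median of -0.44 to -0.04. HFHSD 1 was the lowest array and HFHSD 4 the highest HFHSD array on each of the 3 probes, but fewer HFHSD arrays lay below the lowest CD array than on the brightest probe, 3 on A_72_P101881 and 2 on A_72_P448551. The differences were -0.70 (SE 0.44, adjusted p = 0.486) and -0.64 (SE 0.43, adjusted p = 0.524), with overlapping groups on both. Once each probe was centred on its own mean over the 9 arrays, the 3 probes lay within 0.025 to 0.406 of each other on an array, so they recorded nearly the same profile; probes of 1 transcript on the same arrays are not separate replicates.

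HFHSD 1 lay furthest from the controls in SLC2A4. Relative to the CD mean its level was -2.41, -2.18 and -2.15 on the 3 probes. Without HFHSD 1 the difference on the brightest probe was -0.53 (adjusted p = 0.362), and on the others -0.40 and -0.34. Without HFHSD 4, the animal closest to the controls, it was -1.03 (adjusted p = 0.288). Without CD 1, the array with the lowest share of probes above background, it was -0.80. The SD among HFHSD animals on the brightest probe, 0.86, exceeded that of 84.4% of tested probes, and on the other 2 that of 81.1% and 79.8%. The SD among CD animals exceeded that of 20.2% of tested probes on the brightest probe and of 55.3% and 64.9% on the other 2.

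The SLC2A4 difference was below 0 within each slide that held both diets. Within slide 2 (3 HFHSD arrays and CD 1) the brightest probe differed by -0.99, and within slide 3 (HFHSD 2 against CD 2 and CD 3) by -0.45. For the other 2 probes the values within slide 2 were -1.03 and -1.05, and within slide 3 -0.19 and -0.29. A fit with slide as a fixed block gave, for the brightest probe, a difference of -0.74 (adjusted p = 0.552). Slide 1 held HFHSD 5 and HFHSD 6 and no CD array, so it gives no value of its own.

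**Figure D2:**
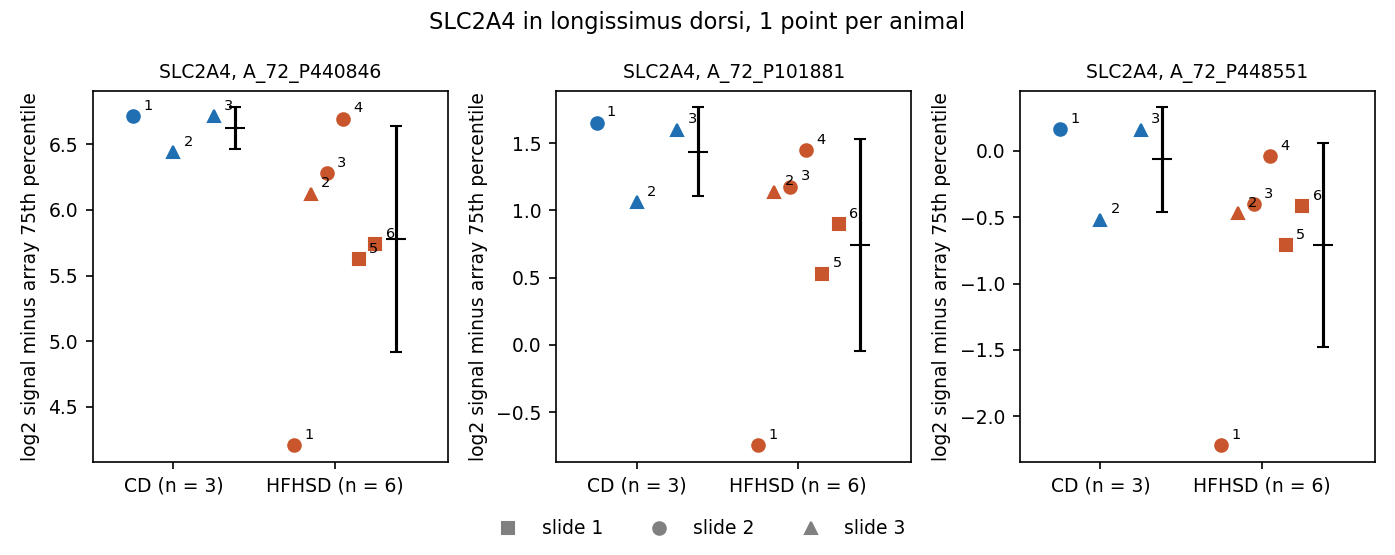
Level of the 3 SLC2A4 probes (log2 relative to the array's 75th percentile, vertical axis) on each array, with 1 point per animal by diet and the group mean and SD; symbols mark the slide and small numbers the animal. HFHSD 1 is the lowest array in each panel and HFHSD 4 lies among the controls on the brightest probe.

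Adipocyte markers were set beside the SLC2A4 levels. Of 10 adipocyte genes, 9 were measured, 7 were higher in HFHSD and 1, the lipid droplet gene CIDEA, passed the threshold. Their mean level ran from -0.72 to -0.018 on the CD arrays and from -0.48 to 1.05 on the HFHSD arrays. The highest CD value was that of CD 1, where PCK1, one of the 9 genes, stood at 5.02. The mean was highest on HFHSD 1, the array with the lowest SLC2A4 level. Of the HFHSD arrays it was lowest on HFHSD 4, the one with the highest SLC2A4 level. The HFHSD arrays between these did not all follow that order. HFHSD 3 had the next highest mean after HFHSD 1, at 0.90. Its SLC2A4 level, 6.28 on the brightest probe, was the next highest after HFHSD 4. PLIN1, which coats the fat droplet of adipocytes, gave a signal well above background in 0 of 3 CD animals and 5 of 6 HFHSD animals. PLIN1 thus met the filter of at least 3 arrays only through HFHSD arrays. Its place among the 7 higher genes depended on that group and is no separate support. The list did not move as one: PCK1 differed by -1.75 (adjusted p = 0.460) and RETN by -0.77 (adjusted p = 0.608). The PCK1 difference rests on CD 1, at 5.02. CD 2 and CD 3, at -0.71 and 0.070, lay within its HFHSD range of -1.26 to 0.36. LIPE, the hormone-sensitive lipase, was at 7.85 on HFHSD 4, the second highest of the 9 arrays, although the mean of the list was low there. The muscle fibre mean was lowest on HFHSD 1, at 8.75. TNNI1, TNNC1, TNNT1 and MYH7 were lowest of the 9 arrays there, at 5.78, 8.26, 8.60 and 8.89. MYH1 and ACTA1 were lowest there too, at 8.98 and 10.65. Not every fibre gene was: CKM, at 10.69 on HFHSD 1, lay within its CD range of 10.65 to 11.26. PLIN1, PCK1, RETN, LIPE and these muscle fibre genes were singled out after their values were seen. The part of fat content in the SLC2A4 values was not tested.

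By the smallest root mean square distance between centred profiles over the 9 arrays, the genes most like SLC2A4 among 2612 named genes were ABRA, MDH1 and CYP2B22. ABRA, an actin-binding protein of striated muscle, lay at a distance of 0.33, MDH1, the cytosolic malate dehydrogenase, at 0.37, and CYP2B22, a cytochrome P450, at 0.39; the median over all compared genes was 0.84. The difference between diets was -1.20 for ABRA (adjusted p = 0.121), -0.92 for MDH1 (adjusted p = 0.304) and -0.89 for CYP2B22 (adjusted p = 0.150). None of the 3 passed the threshold. HFHSD 1 was the lowest array on the brightest probe of each of them too, which is part of what the distance measures. On the other MDH1 probe HFHSD 5 was lower, at 3.56 against 3.65 on HFHSD 1. On the other CYP2B22 probe HFHSD 5 was also lower, at -3.52 against -3.21.

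**Figure D3:**
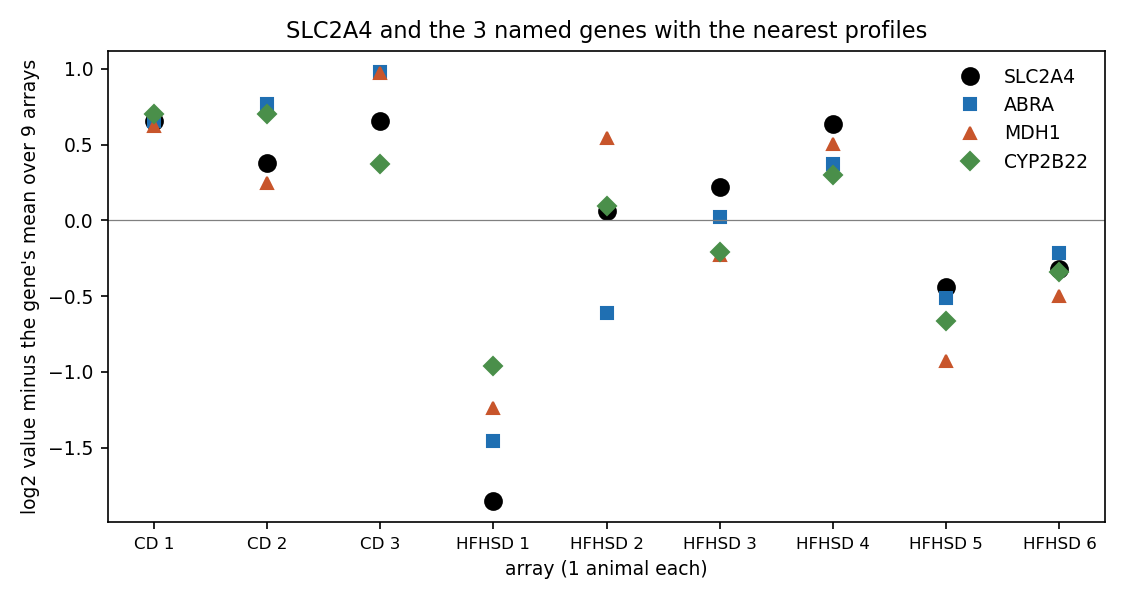
Centred levels (log2, each gene's mean over the 9 arrays set to 0, vertical axis) of SLC2A4, ABRA, MDH1 and CYP2B22 on each array (horizontal axis). On the brightest probe of each gene, shown here, HFHSD 1 is the lowest array, at -1.85 for SLC2A4 and -1.46 for ABRA.

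Among 26 genes of GLUT4 vesicle traffic, AMP kinase and SLC2A4 transcription, 11 were measured, 8 higher and 3 lower in HFHSD, with a median difference of 0.29 beside -0.085 over all named genes, and none passed the threshold. LNPEP, the aminopeptidase that travels in GLUT4 vesicles, had levels of 1.15, 1.21 and 0.72 on the CD arrays and 1.68 to 2.28, with a median of 1.96, on the HFHSD arrays. Its groups did not overlap, with a difference of 0.91 (SE 0.20, adjusted p = 0.0643). It passed in 4 of 21 alternatives, and its adjusted p over them ran from 0.0271 to 0.283. MEF2C, a muscle transcription factor that binds the SLC2A4 promoter, differed by 0.93 on its brightest probe (adjusted p = 0.231), with overlapping groups. On its other 2 probes the groups did not overlap, with differences of 1.67 (adjusted p = 0.0761) and 1.71 (adjusted p = 0.0610). MEF2A, a relative of MEF2C, differed by 0.29 (adjusted p = 0.732). Without CD 3 the difference on the brightest probe was 0.60 for MEF2C and 0.13 for MEF2A. For MEF2A it was 0.15 without HFHSD 1 and 0.45 without CD 1. CLTC, the clathrin heavy chain, differed by -0.62 (adjusted p = 0.218), and by -0.20 under normexp with percentile scaling.

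PPARGC1A, the coactivator of mitochondrial genes that also acts on SLC2A4 transcription, had levels of 3.88, 2.56 and 5.80 on CD 1, CD 2 and CD 3. On the HFHSD arrays it ran from 1.89 on HFHSD 1 through a median of 2.32 to 4.03 on HFHSD 4. The same HFHSD animals stood at its lower and upper end as for SLC2A4. CD 2 and CD 3 were the extremes of the controls, with every HFHSD array below CD 3, and the difference of -1.47 (SE 0.68, adjusted p = 0.321) did not pass. It was -0.60 without CD 3 and -2.23 without CD 2. TBC1D4, the AKT substrate that holds GLUT4 vesicles back, had no named probe, and of the 12 other glucose transporter genes listed only the sodium-coupled SLC5A1 was measured, near background (2 of 3 CD and 4 of 6 HFHSD arrays above it), with a difference of -0.41 (adjusted p = 0.644). The other SLC5A1 probe differed by 0.18 (adjusted p = 0.823). SLC2A3 had no named probe.

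IRS1, the main docking protein of the insulin receptor in muscle, was measured by 2 probes, both named only through the newer annotation of the array. On the brighter probe, A_72_P537138, the CD levels were -1.36, -1.25 and -1.77, and the HFHSD levels ran from -1.55 through a median of -0.97 to -0.29. All HFHSD arrays but HFHSD 4 lay above the highest CD array. The CD mean was -1.46 ± 0.27 (SD, n = 3), the HFHSD mean -0.88 ± 0.45 (SD, n = 6), and the difference 0.58 (SE 0.28, 95% interval -0.051 to 1.22, adjusted p = 0.350). Within slide 2 it was 0.38 and within slide 3 0.47, and with slide as a block 0.42 (adjusted p = 0.537).

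The dimmer IRS1 probe, A_72_P443378, had CD levels of -4.15, -3.79 and -4.36 and HFHSD levels from -4.22 through a median of -3.07 to -2.79. Its signal was well above background in 1 of 3 CD animals and 5 of 6 HFHSD animals, so part of its CD level is near the limit of detection. HFHSD 4 was again the only HFHSD array inside the CD range. The difference was 0.81 (SE 0.33, 95% interval 0.073 to 1.55, adjusted p = 0.256), and this was the probe with an unadjusted limma p of 0.0344. It was -0.21 under normexp background correction with percentile scaling, where the median of all tested probes was -0.17 instead of -0.024. Under quantile normalisation it was 1.37. Without HFHSD 4 it was 0.997, with the lowest adjusted p of the alternatives, 0.106.

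IRS2, the other main substrate, had no named probe. Of 16 receptor and adaptor genes, 4 were measured, 1 higher and 3 lower, with a median difference of -0.16, and none passed. IGF1R, the receptor for IGF-1, had levels of -2.46, -2.37 and -2.07 on the CD arrays and -3.07 to -2.48, with a median of -2.85, on the HFHSD arrays. These groups did not overlap, and the difference was -0.51 (SE 0.19, adjusted p = 0.223). The signal was low, well above background in 2 of 3 CD animals, and the difference was -0.12 under normexp with quantile normalisation. On the other IGF1R probe the groups overlapped, with a difference of -0.52 (adjusted p = 0.635). GRB10, an adaptor that restrains the insulin receptor, differed by 0.30 (adjusted p = 0.576), and by 0.76 under normexp with percentile scaling. GRB2, which links receptors to Ras, differed by -0.24 (adjusted p = 0.738), and by 0.19 under normexp with percentile scaling.

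AKT1 encodes one of the kinases at the centre of the pathway. Its single probe had levels of 0.82, 0.19 and 0.61 on CD 1, CD 2 and CD 3 and from 0.11 through a median of 0.43 to 0.56 on the HFHSD arrays. CD 2 lay below all but 1 of the HFHSD arrays and CD 1 and CD 3 above all of them. The CD mean was 0.54 ± 0.32 (SD, n = 3) and the HFHSD mean 0.38 ± 0.17 (SD, n = 6). The difference was -0.16 (SE 0.20, 95% interval -0.60 to 0.28, adjusted p = 0.768), and it was -0.019 without CD 1 and -0.34 without CD 2. The width of this interval means that equal AKT1 levels are not shown. Within slides 2 and 3 the values were -0.37 and -0.14, and with slide as a fixed block -0.26.

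**Figure D4:**
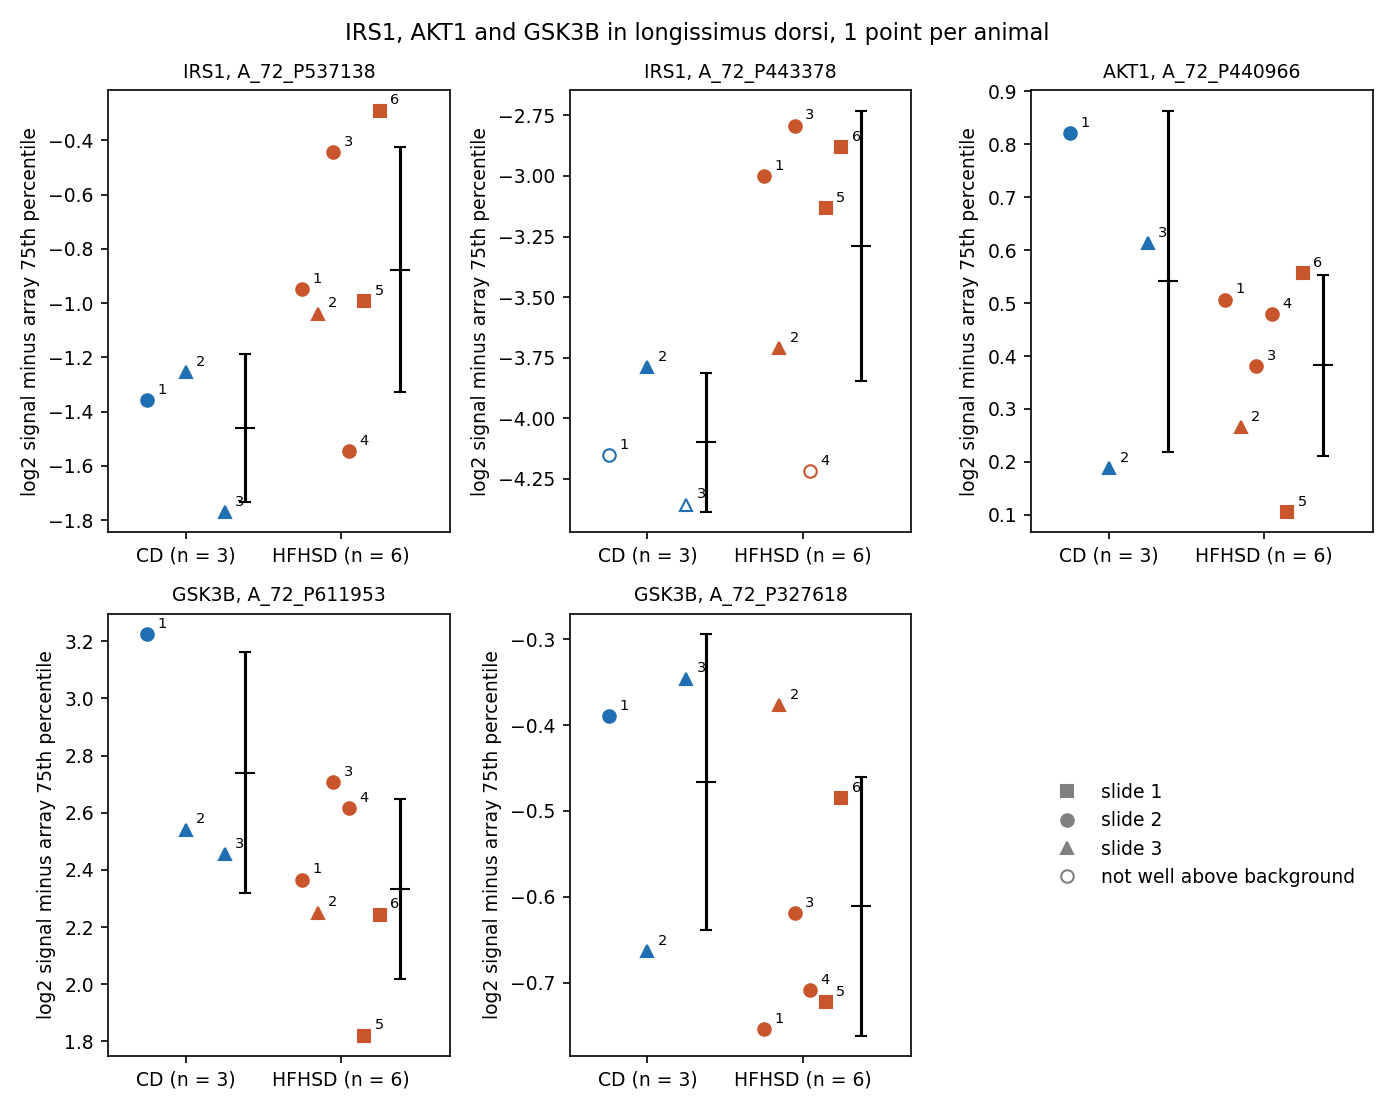
Level of the IRS1, AKT1 and GSK3B probes (log2 relative to the array's 75th percentile, vertical axis) on each array by diet, with the group mean and SD; symbols mark the slide and small numbers the animal. On both IRS1 probes 5 of 6 HFHSD animals lie above the highest control and HFHSD 4 does not, and on the AKT1 and GSK3B probes the diets overlap.

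Of 22 genes of PI3K, PDK1, AKT and mTOR signalling, 4 were measured, 3 higher and 1 lower, with a median difference of 0.21 and none past the threshold. MTOR, the growth-controlling kinase downstream of AKT, was the lower one. Its levels were 3.31, 3.17 and 3.07 on the CD arrays and 2.28 to 2.96, with a median of 2.73, on the HFHSD arrays, and the groups did not overlap. The difference was -0.48 (SE 0.20, adjusted p = 0.261), and -0.037 under normexp with percentile scaling. PIK3C3, the class III lipid kinase of autophagy and vesicle sorting, differed by 0.43 on its brightest probe (adjusted p = 0.315). Its other probes differed by 0.72 (adjusted p = 0.121, no overlap), 0.35 and -0.13. SGK1, a kinase related to AKT, differed by 0.36 (adjusted p = 0.596), which was 0.23 without CD 2 and 0.62 with slide as a block.

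Of 17 listed inhibitors of the pathway, 5 were measured, 3 higher and 2 lower, with a median difference of 0.13 and none past the threshold. PTPN1, the phosphatase that dephosphorylates the insulin receptor, had levels of 0.66, 0.49 and 1.45 on the CD arrays and -0.36 to 0.63, with a median of 0.077, on the HFHSD arrays. The groups overlapped, and the difference was -0.73 (SE 0.30, adjusted p = 0.260). Its other probes differed by -0.54 and 0.023. SOCS3, which blocks IRS proteins, differed by -0.59 (adjusted p = 0.296) and exceeded background clearly on 2 of 3 CD and 3 of 6 HFHSD arrays. Without CD 3 the difference was -0.44 for PTPN1 and -0.36 for SOCS3, and under normexp with quantile normalisation it was -0.48 and -0.11. IKBKB, an inflammatory kinase that can phosphorylate IRS1, differed by 0.27 (adjusted p = 0.592), but by -0.32 and -0.021 under the 2 normexp settings.

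FOXO1 itself had no named probe, so its branch is described through 20 FOXO family and FOXO target genes. Of these, 10 were measured, 3 higher and 7 lower, with a median difference of -0.13. CAT, the catalase of peroxisomes, which removes hydrogen peroxide, rose and was the only listed gene of the pathway to pass the threshold. Its levels were 4.56, 4.58 and 4.45 on the CD arrays and 5.19 to 5.42, with a median of 5.33, on the HFHSD arrays, with no overlap. The difference was 0.80 (SE 0.15, adjusted p = 0.0401). All 9 CAT probes were higher in HFHSD and 1 of them passed, with overlapping groups on A_72_P664500 and A_72_P579607.

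The CAT difference was 0.83 within slide 2 and 0.80 within slide 3. Entering slide as a fixed block gave an adjusted p of 0.0778, and leaving out any 1 of the 9 animals gave differences of 0.76 to 0.83 with an adjusted p of 0.0610 to 0.206, past the threshold in none of these fits. CAT passed in 8 of 21 alternatives, 1 of them the deposited table, which repeats the values used. MSTN, myostatin, which restrains muscle growth, differed by 1.35 (SE 0.32, adjusted p = 0.0758) without overlap, and 2 of 3 CD animals gave a signal well above background. Its difference was 0.37 (adjusted p = 0.607) under normexp with percentile scaling and 0.69 (adjusted p = 0.0864) under normexp with quantile normalisation. KLF15, a transcription factor of amino acid and glucose metabolism, differed by -1.15 (SE 0.37, adjusted p = 0.157), also without overlap, and by -0.73 under normexp with percentile scaling.

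GSK3B encodes a kinase that inactivates glycogen synthase and is itself switched off by AKT. On its brighter probe, A_72_P611953, the CD levels were 3.23, 2.54 and 2.46, and the HFHSD levels ran from 1.82 through a median of 2.31 to 2.71. CD 1 was the highest array and HFHSD 5 the lowest, and 4 of the 6 HFHSD arrays lay below the lowest CD array. The CD mean was 2.74 ± 0.42 (SD, n = 3), the HFHSD mean 2.33 ± 0.32 (SD, n = 6), and the difference -0.41 (SE 0.25, 95% interval -0.97 to 0.16, adjusted p = 0.485). Without CD 1 it was -0.16, and under normexp with percentile scaling 0.019. Within slides 2 and 3 it was -0.66 and -0.25, and with slide as a block -0.47 (adjusted p = 0.268).

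The other GSK3B probe, A_72_P327618, had CD levels of -0.39, -0.66 and -0.35 and HFHSD levels from -0.75 through a median of -0.66 to -0.38. Its difference was -0.14 (SE 0.17, adjusted p = 0.758), and within slides 2 and 3 it was -0.30 and 0.13. The SD among HFHSD animals on this probe was larger than that of 4.15% of tested probes. The share was 31.4% for the brighter GSK3B probe and 84.4% for the brightest SLC2A4 probe.

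GSK3A had no named probe. Of 14 genes of glycogen metabolism and glucose phosphorylation, 7 were measured, 6 lower and 1 higher, with a median difference of -0.52, and none passed. UGP2, which makes the UDP-glucose used for glycogen, had levels of 6.64, 6.16 and 6.33 on the CD arrays and 4.86 to 5.98, with a median of 5.26, on the HFHSD arrays. Its groups did not overlap, and the difference was -1.06 (SE 0.30, adjusted p = 0.110). The other UGP2 probes differed by -0.87, -1.03, -1.10 and -0.80, and the groups overlapped on the first and last of these. GYS1, the muscle glycogen synthase that GSK3 inactivates, differed by -0.52 (adjusted p = 0.511), and HK2, the insulin-responsive hexokinase, by -0.58 (adjusted p = 0.539). Single animals moved both values: GYS1 differed by -0.26 without CD 1 and -0.34 without HFHSD 1, and HK2 by -0.23 without CD 3 and -1.07 without CD 2. UGP2 differed by -0.64 under normexp with percentile scaling (adjusted p = 0.607).

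Over the 7 pathway lists 42 of 127 genes were measured by their brightest probe, 19 higher and 23 lower in HFHSD, beside 57.6% lower of all 2613 named genes tested. Of the 42 genes 1 passed, 2.38%, beside 0.995% of all named genes. At an unadjusted limma p under 0.05, 12 were counted, 28.6%, beside 18.4%, and in 7 the groups did not overlap, beside 13.1% of named genes. The median difference was -0.050.

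**Figure D5:**
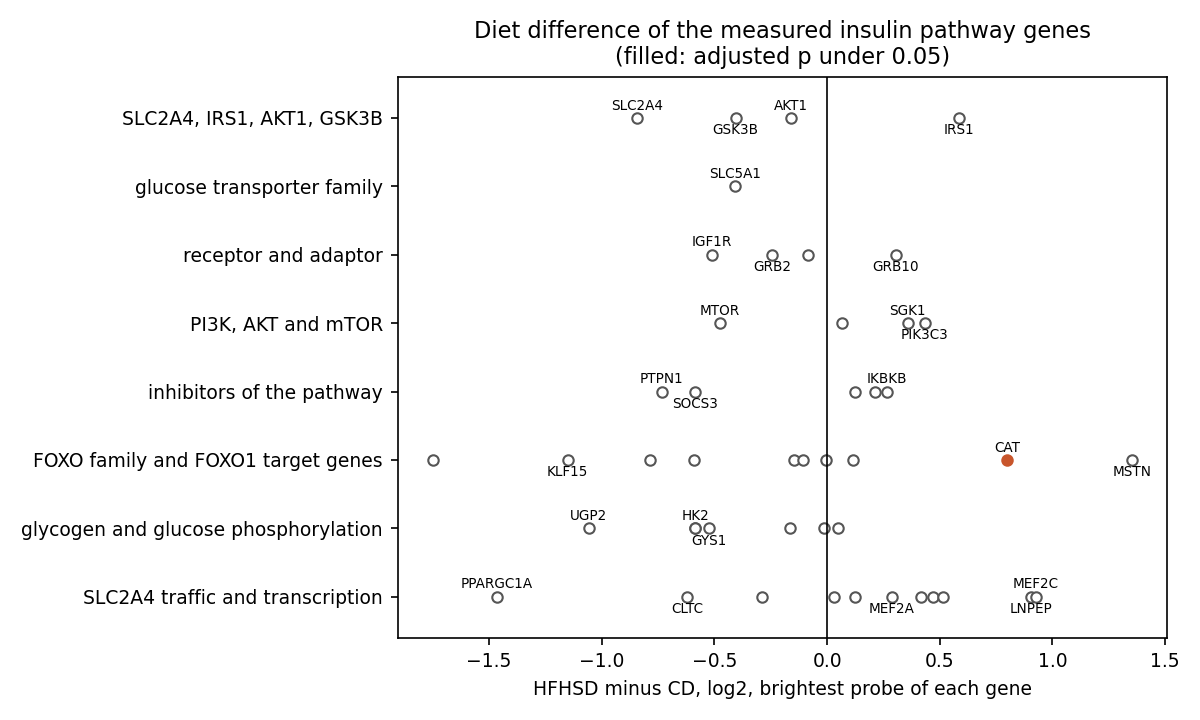
HFHSD minus CD difference in log2 (horizontal axis) of each measured gene of the pathway lists, by its brightest probe, with 1 row per list and the named genes labelled. Differences lie on both sides of 0 in most lists, 6 of 7 glycogen genes lie below 0, and CAT is the only gene past the adjusted threshold.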

How the data were processed

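The deposited files are scanner output: linear spot intensity values, extracted by the authors with Agilent Feature Extraction 10.7.3.1, per the file headers. Its processed signal is background-subtracted and not scaled between arrays. The authors' deposited series table repeats these intensity values with 0 spots differing on any of the 9 arrays, and its medians ran from 13.0 to 40.0, so it is linear and uncentred. Control spots and outlier spots were left out, which dropped 22 probes, spots of a probe were averaged, and log2 values minus the array's 75th percentile were used. Probes well above background on at least 3 arrays were tested with limma 3.58.1 in R 4.3.3 (lmFit and eBayes, two-sided, all 9 arrays, no covariates), and the code was tested on simulated data. The RefSeq table gave names only: 6891 probes had 1 gene, for 3196 genes, and 36712 stayed unnamed. The array files state no genome build, so coordinates are left out. A gene is represented by its brightest tested probe.

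The genes named are the 9 genes of the opening, the genes of each list that passed by any probe, the 3 with the smallest p in each pathway list, a few set partners (PPARGC1A, MEF2A, TBC1D4, IRS2, GSK3A and SLC2A3), and the 3 genes nearest to SLC2A4; the same search for INSR could not be made. The muscle fibre genes, and adipocyte genes other than CIDEA, fall outside this rule. The members and lists were chosen with earlier results of these data known. Slide 2 held HFHSD 1, HFHSD 3, HFHSD 4 and CD 1, slide 3 held HFHSD 2, CD 2 and CD 3, and slide 1, scanned on another day, held HFHSD 5 and HFHSD 6. Alternatives were quantile normalisation, normexp (offset 50, on median signals, since the files hold no mean signal) with either scaling, other filters on dim probes, slide as a fixed or random block, array weights, a variance trend, the deposited table, kept outlier spots, the mean of a gene's probes, a threshold of 0.1 and leaving out each array. The number of arrays limits the precision, replicate numbers follow the order of the records, and pairwise correlations of 0.939 to 0.980 showed no array deposited more than once.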

Additional observations from a re-analysis of the deposited data

Results flagged for a closer look

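HFHSD 1 lay apart from the other HFHSD animals on 1 SLC2A4 probe. On A_72_P448551 its level was -2.22, and the next lowest HFHSD array was at -0.71. The gap to that neighbour was 0.691 of the whole range of the 6 HFHSD arrays, above Dixon's 95% critical value for 6 values. On the other 2 SLC2A4 probes the same gap was 0.569 and 0.581 of the range, below that value. Of 32 probes and genes tested in this way 1 passed, and a test at the 95% level passes about 5% of groups by chance.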

How the results depend on the processing

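The number of probes that passed over the whole array, 344, depended on the setting: 1204 with array weights, 66 with no filter on dim probes, 736 with the filter at all 9 arrays, 88 under normexp with percentile scaling, 856 under normexp with quantile normalisation, 84 with slide as a fixed block, 675 with slide as a random block, 612 with a variance trend and robust prior, 1212 at a threshold of 0.1, and 55 without slide 1, an alternative chosen after seeing the data. Leaving out 1 animal gave 25 to 325: 25 without CD 3, 32 without CD 1, 87 without CD 2, 75 without HFHSD 3, 93 without HFHSD 6, 99 without HFHSD 2 and 160 without HFHSD 5. The share of passing probes that were higher in HFHSD was 56.4%, against 71.6% under normexp with percentile scaling and 38.2% with the filter at all 9 arrays. Pathway genes that passed, 1 in the fit reported, were 2 (CAT and LNPEP) with array weights, normexp with quantile normalisation, the variance trend and the filter at all 9 arrays, and 0 with no filter, normexp with percentile scaling, slide as a fixed block, without slide 1, and without each animal in turn. Signs turned for IRS1 A_72_P443378 (-0.21), GSK3B A_72_P611953 (0.019), GRB2 (0.19) and IKBKB (-0.32) under normexp with percentile scaling, for IKBKB (-0.021) under normexp with quantile normalisation, and for SLC5A1 without CD 1 (0.014, in a range of -0.69 to 0.014 over the animals left out); the cause was not tested. The count of 0 for the SLC2A4, IRS1, AKT1 and GSK3B probes held in each setting. No paired analysis was possible because the labels pair no animals across the diets. Low signal over background limits the dimmer IRS1 probe, SLC5A1, SOCS3, IGF1R, IKBKB and MSTN.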

Other observations

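Markers of other cell types that the muscle could hold were measured in part. Of 10 macrophage and monocyte genes 8 were measured, 7 lower and 1 higher in HFHSD; the higher one, the Fc receptor gene FCGR3A, differed by 1.19 (adjusted p = 0.0338 by limma) and was the only one to pass. The mean level of these genes ran from 0.89 to 1.71 on the CD arrays and from 0.58 to 1.84 on the HFHSD arrays. Of 10 endothelial genes 5 were measured, with a mean level of 1.92 to 2.05 on the CD arrays and 1.61 to 2.43 on the HFHSD arrays, and none passed. Of 9 fibroblast genes 5 were measured, at 0.52 to 1.32 and 0.69 to 1.17, and none passed. Of 6 Schwann cell and nerve genes 3 were measured, at -3.75 to -3.72 and -4.66 to -2.91, and none passed. The 9 erythrocyte genes listed had no measured named probe. The adipocyte gene CIDEA, which passed, differed by 1.49 (adjusted p = 0.0379), with levels of -0.92, -1.42 and -1.22 on the CD arrays and -0.27 to 0.92 on the HFHSD arrays.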
